A study of Mus musculus with 3 samples.

Results

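The genes described here encode respiratory complexes I, II and III of the mitochondrial inner membrane. They were taken by symbol, as every gene whose name begins with Ndufa, Ndufb, Ndufc, Ndufs, Ndufv or Uqcr together with Sdha, Sdhb, Sdhc and Sdhd, and the rule itself uses no measured value. The rule found 55 of the 19087 named genes of the array, measured by 80 probes. Complex I gave 43 of them, complex II 4 and complex III 8. The 43 complex I genes held 35 subunits, 7 assembly factors (the Ndufaf genes) and Ndufa4, which bears a complex I name but was later assigned to complex IV.

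Complex I takes electrons from NADH and complex II takes them from succinate, and both hand them to ubiquinone in the membrane. Complex III passes the electrons from ubiquinone to cytochrome c, and complexes I and III pump protons that drive ATP synthesis. Resident macrophages of the lung airspace live in an oxygen-rich, lipid-rich environment, and oxidative metabolism is a known feature of these cells.

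The study compared 3 mononuclear phagocyte populations of untreated wild-type C57BL/6N mice aged 6 to 9 weeks, of both sexes. Peripheral blood monocytes (PBMo) were flow-sorted from blood as cells of low side scatter positive for CD11b and CD115, and lung macrophages (lung Mϕ) and lung dendritic cells (lung DC) as CD11c-positive cells of digested, perfused lung with high and low autofluorescence, respectively. The labels call the macrophages alveolar, whereas the sort began from whole lung tissue. RNA of 32 animals was combined in pools of 4 animals, 8 pools per cell type, and amplified RNA was hybridized on 12 two-colour arrays, 4 per comparison with the dyes balanced.

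Each gene had 3 values, the log2 ratios of lung Mϕ over PBMo, lung DC over PBMo and lung Mϕ over lung DC, so that a value of 1 stands for a 2-fold difference. One value per comparison was deposited for each spot, the first minus the second column gave the third in every spot, and the values of single pools were not analysed here. No error between pools and no test could therefore be given, and the ratios carry no signal level. Both comparisons with PBMo come from one model fitted over all 12 arrays, so they are not independent of each other. The position of each spot was recovered from the agreement of probes of the same transcript: of 32 candidate layouts, the chosen one placed a share of 0.907 of the variance of such probes between transcripts rather than within them, over 5899 transcripts, and the next best 0.413. The layout was the same when the 55 genes were left out of the choice. The only spread at hand was that between probes of the same transcript, with a median SD of 0.057, 0.067 and 0.049 in the 3 comparisons over 12 transcripts of these genes, which describes spots and not mice.

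Marker genes followed the labelled cell types. All 7 alveolar macrophage markers were above 0 in lung Mϕ over PBMo (median 4.25), all 8 dendritic cell markers were above 0 in lung DC over PBMo (median 2.64), and all 6 blood monocyte markers were below 0 in both. Markers of other cells also differed between the sorted populations. The 5 NK cell markers had medians of -2.83, 0.81 and -3.64 in lung Mϕ over PBMo, lung DC over PBMo and lung Mϕ over lung DC, and the 3 T cell markers -0.34, 1.58 and -1.92. The 4 neutrophil markers had medians of -2.07, -2.69 and 0.62, the 4 platelet markers -2.79, -2.15 and -0.72, and the 3 lung epithelium markers 2.71, 2.37 and -0.20. In lung Mϕ over lung DC 3 neutrophil markers were above 0, but S100a9 was at -2.14. In lung DC over PBMo 3 platelet markers were below 0, but Pf4 was at 0.18. The 2 B cell markers had medians of -1.23, -0.44 and -0.79, and Alas2, a red cell marker, had -3.18, -2.37 and -0.81. The 7 alveolar macrophage markers had a median of 2.38 in lung DC over PBMo. The study stained the gated cells for surface markers of T, B and NK cells and detected none. It detected no neutrophil marker on the lung cells. For PBMo its text reports partial staining for GR-1, its neutrophil marker, whereas a figure legend calls them negative. The part of these other cells in the ratios below was not tested, and in pooled RNA fewer cells of a type and less RNA per cell cannot be told apart. Digestion of the lung and the cell type likewise cannot be told apart in both comparisons with blood.

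The ratios of the 55 genes were small and lay mostly on the same side. In lung Mϕ over lung DC, 52 of the 55 genes were above 0, beside 50.8% of all genes, with a median log2 ratio of 0.46 (1.38-fold), beside 0.00 over all genes. The median of all genes was 0.00 in the other comparisons too, and genes without expression in these cells remain among all genes, since no signal level was at hand. In lung Mϕ over PBMo 41 genes were above 0, beside 50.9% of all genes, with a median of 0.23. In lung DC over PBMo 7 genes were above 0, beside 51.0% of all genes, and 48 below it, beside 49.0%, with a median of -0.21. The genes were thus, as a set, highest in lung Mϕ, lower in PBMo and lowest in lung DC.

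Single genes seldom reached a 2-fold difference. In lung Mϕ over PBMo 2 of 55 genes passed it, Ndufaf2 upwards and Ndufaf7 downwards, beside 9.96% of all genes (5.47% higher, 4.49% lower). In lung DC over PBMo 0 of 55 did, beside 5.11% of all genes (4.02% higher, 1.09% lower). In lung Mϕ over lung DC only Ndufa4 did, upwards, beside 7.26% of all genes (2.74% higher, 4.52% lower). In either direction the share of the 55 genes was below that of all genes in each comparison. Past 1.5-fold, 16 genes were higher and 0 lower in lung Mϕ over lung DC, beside 7.15% of all genes higher and 8.49% lower. At the same limit 7 genes were higher and 1 lower in lung Mϕ over PBMo, beside 10.4% and 8.48% of all genes. In lung DC over PBMo 1 gene was higher and 4 were lower, beside 7.86% and 3.80% of all genes.

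**Figure D1:**
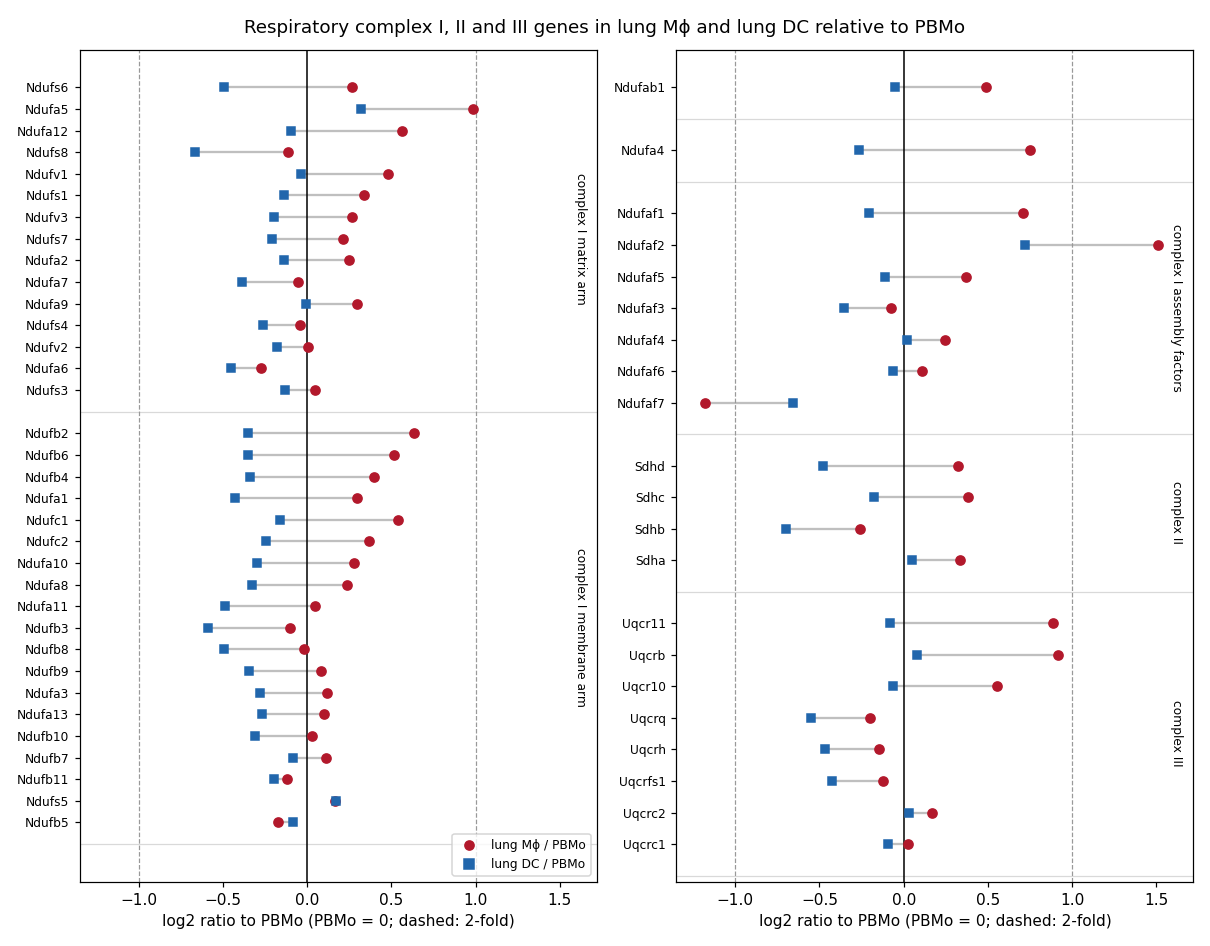
Log2 ratios to PBMo (horizontal axis, PBMo at 0, dashed lines at 2-fold) of the 55 genes (rows, by complex and role), with red circles for lung Mϕ, blue squares for lung DC and a grey line whose length is the ratio of lung Mϕ over lung DC. Each point is the mean of a gene's probes, the red circle lies to the right of the blue square in 52 genes, and the blue square lies below 0 in 48.

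The order of the cell types was the same for most of the genes. In 34 of 55 genes (61.8%) it was lung Mϕ, then PBMo, then lung DC, beside 17.7% of all genes. A further 12 genes (21.8%) were highest in PBMo and lowest in lung DC, beside 12.9% of all genes. Another 6 (10.9%) were highest in lung Mϕ and lowest in PBMo, beside 20.1% of all genes. The exceptions were Ndufaf7 and Ndufb5, lowest in lung Mϕ, and Ndufs5, highest in lung DC. Neighbours in an order may differ by less than the probe spread: Ndufv2, for instance, was at 0.00 in lung Mϕ over PBMo.

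**Figure D2:**
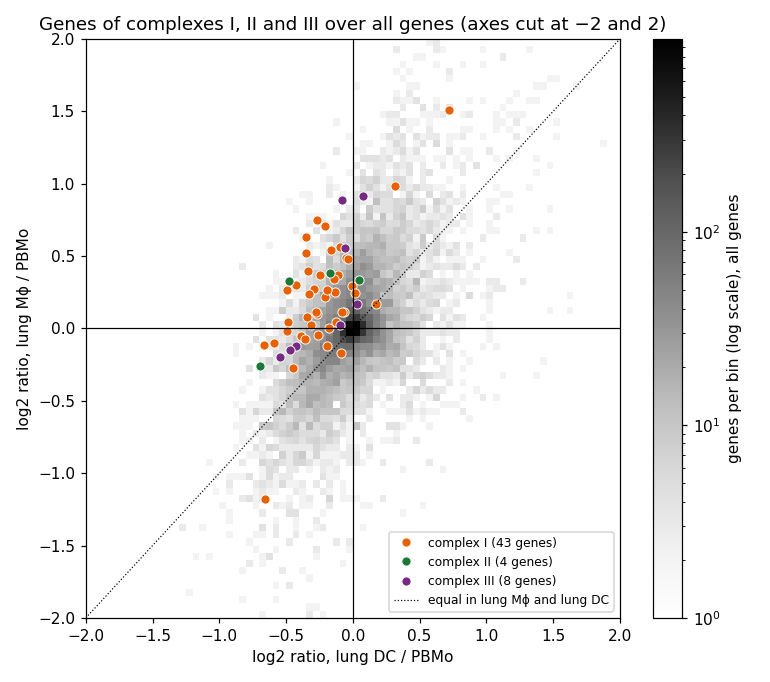
Log2 ratio of lung DC over PBMo (horizontal axis) against that of lung Mϕ over PBMo (vertical axis), with the 55 genes as points coloured by complex and the density of all genes in grey on a log scale, both axes ending at -2 and 2. Both ratios have PBMo in common and come from one model, and 34 of the 55 genes lie at the upper left, above 0 for lung Mϕ and below 0 for lung DC.

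Complex I has a matrix arm, which holds the flavin and the iron-sulphur clusters, and a membrane arm, which pumps protons. All 15 matrix arm genes were above 0 in lung Mϕ over lung DC, from 0.17 to 0.76 (median 0.43), and 14 of 15 were below 0 in lung DC over PBMo (median -0.18). Ndufv1, the subunit that binds NADH and the flavin, had log2 ratios of 0.48 in lung Mϕ over PBMo, -0.04 in lung DC over PBMo and 0.52 in lung Mϕ over lung DC. Ndufs1, the largest iron-sulphur subunit, had 0.34, -0.14 and 0.48 in the same order of comparisons. Both were thus close to the monocyte level in lung DC and above it in lung Mϕ.

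The other core subunits of the arm divided by comparison. Ndufs7, which carries the cluster next to ubiquinone, had log2 ratios of 0.22, -0.21 and 0.43. Ndufs8, which carries iron-sulphur clusters on the same path, had -0.12, -0.66 and 0.55, and was among the 4 genes lower past 1.5-fold in lung DC over PBMo. Its ratio between the lung cells was thus close to that of Ndufv1, but with lung DC far below PBMo. Ndufs3, a core subunit without a cluster, had 0.04, -0.13 and 0.17, and Ndufv2, which binds a further cluster, 0.00, -0.18 and 0.18. These means were the smallest differences between lung Mϕ and lung DC among the 6 core genes listed. The 2 probes of Ndufv2 differed, at 0.01 and 0.35 in lung Mϕ over lung DC and at 0.00 and -0.36 in lung DC over PBMo.

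Of the 9 accessory subunits of the matrix arm, Ndufa5 stood highest in both comparisons with PBMo. Its log2 ratios were 0.98 in lung Mϕ over PBMo, 0.32 in lung DC over PBMo and 0.66 in lung Mϕ over lung DC, and it was the only matrix arm gene above 0 in lung DC over PBMo. Ndufa12, an accessory subunit added late in assembly, had 0.56, -0.09 and 0.65. Ndufs6, a zinc-binding subunit, had 0.26, -0.49 and 0.76, the highest ratio of lung Mϕ over lung DC in the arm, and its 3 probes lay between 0.73 and 0.80 there. Ndufs4, whose loss in mice causes a fatal brain disease, was at -0.04, -0.26 and 0.22. Ndufa6 was below 0 in both comparisons with PBMo, at -0.27 and -0.45, and at 0.18 in lung Mϕ over lung DC. Ndufa2, Ndufa7, Ndufa9 and Ndufv3 lay between 0.30 and 0.46 in lung Mϕ over lung DC.

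The membrane arm was represented by 19 accessory subunits, since its core subunits are encoded by mitochondrial DNA and were not analysed here. In lung Mϕ over lung DC 17 of 19 were above 0 (median 0.49), and in lung DC over PBMo 18 of 19 were below 0 (median -0.31). Ndufb2 had log2 ratios of 0.63 in lung Mϕ over PBMo, -0.35 in lung DC over PBMo and 0.98 in lung Mϕ over lung DC, just short of 2-fold. Ndufb6 had 0.52, -0.35 and 0.87, and Ndufb4 0.40, -0.34 and 0.74. These 3 subunits of the distal part of the arm were above the monocyte level in lung Mϕ and below it in lung DC.

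Ndufa1, a small subunit needed for assembly of the complex, had 0.30, -0.43 and 0.73, with both probes within 0.04 of each other in lung Mϕ over lung DC. Ndufc1 had 0.54, -0.16 and 0.70, and Ndufc2 0.37, -0.24 and 0.61. All 3 passed 1.5-fold in lung Mϕ over lung DC. Ndufb3, another subunit of the distal part, was lower past 1.5-fold in lung DC over PBMo (-0.59) and near 0 in lung Mϕ over PBMo (-0.10). Ndufb8 had a similar pair of ratios, -0.49 and -0.02, and Ndufa11 -0.49 and 0.04. In these 3 genes the difference between the lung cells (0.49, 0.48 and 0.53) came with a ratio near 0 for lung Mϕ over PBMo. The lowest values of the arm in lung Mϕ over lung DC were those of Ndufb5 (-0.08), Ndufs5 (-0.00) and Ndufb11 (0.08). The 10 Ndufb genes together had medians of 0.05, -0.34 and 0.45.

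Ndufa4 had the highest log2 ratio of all 55 genes in lung Mϕ over lung DC, 1.02 (2.02-fold), with 0.75 in lung Mϕ over PBMo and -0.27 in lung DC over PBMo. Ndufab1, the mitochondrial acyl carrier protein, which is part of complex I and also serves fatty acid synthesis, had 0.49, -0.05 and 0.54, with its 4 probes from 0.00 to 0.80 in lung Mϕ over lung DC. By their means both genes stood on the same side as the subunits in each comparison. In lung DC over PBMo, however, the probes of Ndufab1 lay on both sides of 0, from -0.20 to 0.08.

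The 7 assembly factors, which help to build complex I but are not part of it, spread the most widely of the groups in lung Mϕ over PBMo. Ndufaf2, which acts late in assembly and is related to Ndufa12, had log2 ratios of 1.51 in lung Mϕ over PBMo, 0.72 in lung DC over PBMo and 0.79 in lung Mϕ over lung DC. Its single probe was designed on a cDNA clone sequence, not on a RefSeq mRNA. Ndufaf7, a mitochondrial methyltransferase, had -1.18, -0.66 and -0.52. It was the only one of the 55 genes below 0 by more than 0.1 in lung Mϕ over lung DC, and it also rested on 1 probe. Ndufaf1, which acts in building the membrane arm, had 0.71, -0.21 and 0.92. Ndufaf3, Ndufaf4, Ndufaf5 and Ndufaf6 lay between 0.18 and 0.48 in lung Mϕ over lung DC. The median of the 7 factors there was 0.28, beside 0.48 for the 35 subunits.

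All 4 complex II genes were above 0 in lung Mϕ over lung DC. Sdhd, a membrane anchor, had log2 ratios of 0.32 in lung Mϕ over PBMo, -0.48 in lung DC over PBMo and 0.80 in lung Mϕ over lung DC. Sdhc, the other anchor, had 0.38, -0.17 and 0.56. Both anchors were above the monocyte level in lung Mϕ and below it in lung DC. Sdhb, the iron-sulphur subunit, had -0.26, -0.70 and 0.44, the lowest ratio of all 55 genes in lung DC over PBMo. Sdha, the flavin subunit that oxidizes succinate, had 0.34, 0.05 and 0.29. The 4 genes thus stood on the same side in lung Mϕ over lung DC but not relative to PBMo, where Sdhb was below 0 in both comparisons. For Sdha the mean in lung DC over PBMo joined RefSeq probes at -0.08 and -0.09 with a clone probe at 0.31.

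All 8 complex III genes were also above 0 in lung Mϕ over lung DC, from 0.12 to 0.96 (median 0.34), with medians of 0.10 in lung Mϕ over PBMo and -0.09 in lung DC over PBMo. Uqcr11, a small subunit at the edge of the complex, had log2 ratios of 0.88 in lung Mϕ over PBMo, -0.08 in lung DC over PBMo and 0.96 in lung Mϕ over lung DC. Uqcrb, which lies next to a ubiquinone site, had 0.91, 0.08 and 0.84, and Uqcr10, another small subunit, 0.55, -0.06 and 0.61. In these 3 genes lung DC lay within 0.1 of PBMo. Uqcrc1 and Uqcrc2, the large core proteins of the matrix side, were nearly level, with 0.02, -0.10 and 0.12 for Uqcrc1 and 0.17, 0.03 and 0.14 for Uqcrc2. Uqcrfs1, the Rieske iron-sulphur protein, had -0.12, -0.43 and 0.30. Uqcrh, the hinge protein near cytochrome c1, had -0.15, -0.47 and 0.32, so that both were highest in PBMo. The mean of Uqcrq was -0.20, -0.55 and 0.35, but its 2 probes disagreed in sign in lung Mϕ over PBMo, with 0.38 for the RefSeq mRNA and -0.78 for a cDNA clone.

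The widest probe ranges in lung Mϕ over PBMo, those of Uqcrq, Ndufs5 and Ndufab1, joined probes designed on different sequences. Of the 80 probes 67 matched RefSeq mRNAs and 13 other accessions such as cDNA clones. In lung Mϕ over lung DC 65 of the 67 RefSeq probes were above 0 (median 0.48), beside 10 of the 13 others (median 0.10). The RefSeq probe of Ndufs5 had 0.65 in lung Mϕ over PBMo, 0.01 in lung DC over PBMo and 0.64 in lung Mϕ over lung DC, and its other probe -0.32, 0.34 and -0.65, so that its mean near 0 stood for neither. Both RefSeq probes of Ndufc1 passed or neared 2-fold in lung Mϕ over lung DC (1.01 and 0.99), and its other probe was at 0.10. The 3 probes of Ndufv3 shared a RefSeq mRNA and yet read 0.81, 0.27 and 0.31 in lung Mϕ over lung DC. Probes of opposite sign were present in 6, 5 and 3 of the 17 genes with several probes in lung Mϕ over PBMo, lung DC over PBMo and lung Mϕ over lung DC, and 38 genes had 1 probe only.

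**Figure D3:**
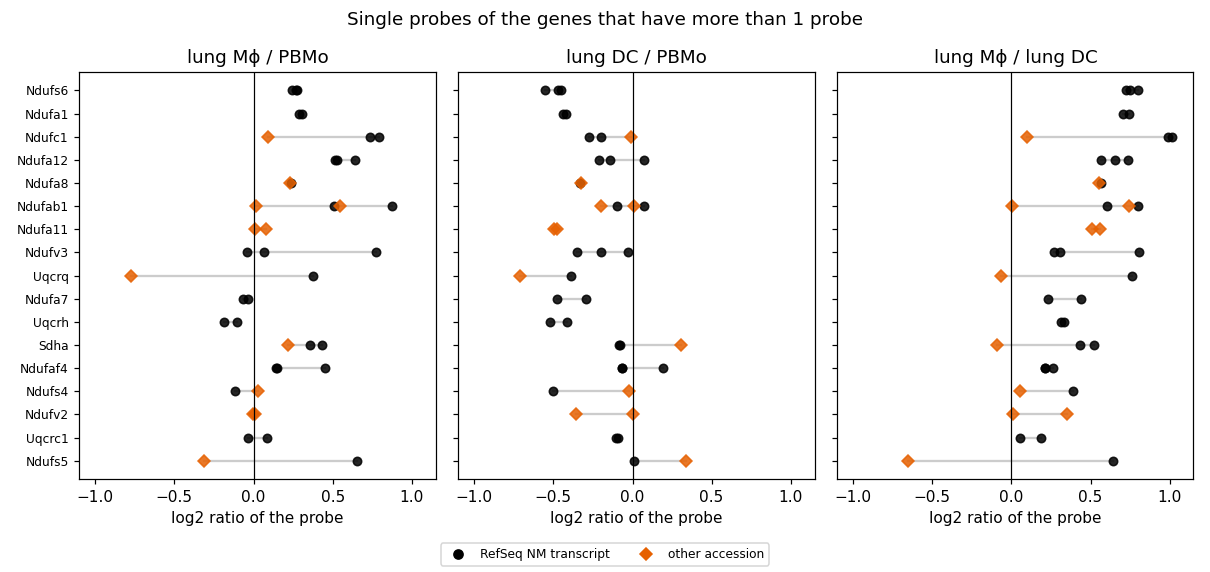
Log2 ratios of the single probes of the 17 genes with several probes, in the 3 comparisons, with black circles for probes on RefSeq mRNAs, orange diamonds for other accessions and a grey line joining the probes of a gene. The probes of Ndufs6 and Ndufa1 lie close together, whereas those of Uqcrq, Ndufs5 and Ndufc1 lie apart by source.

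Other genes of the mitochondrion were read in the same way. The 18 subunits of complex IV, which reduces oxygen, had median log2 ratios of 0.37 in lung Mϕ over PBMo, -0.06 in lung DC over PBMo and 0.54 in lung Mϕ over lung DC. The 17 subunits of complex V, the ATP synthase, had 0.28, -0.19 and 0.45, and 77 proteins of the mitochondrial ribosome 0.18, -0.19 and 0.35. In the last list 71 of 77 genes were above 0 in lung Mϕ over lung DC. The order lung Mϕ, PBMo, lung DC held in 9 of 18, 8 of 17 and 40 of 77 genes of these lists. The 19 genes of the tricarboxylic acid cycle and its entry had medians of 0.29, -0.07 and 0.34. By contrast, 74 cytosolic ribosomal proteins had medians of -0.07, -0.07 and 0.03, and 39 proteasome subunits 0.08, -0.13 and 0.18. The last 2 lists were added after the values had been seen.

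Some of these other genes had larger ratios than any of the 55. The mitochondrial lists held 195 genes, among them 18 regulators of mitochondrial genes. Of the 195, 12 were higher and 1 lower past 2-fold in lung Mϕ over PBMo (6.67%, beside 9.96% of all genes in either direction). In lung DC over PBMo 5 were higher and 0 lower (2.56%, beside 5.11%), and in lung Mϕ over lung DC 12 were higher and 2 lower (7.18%, beside 7.26%). Taken in either direction and with probes averaged per gene, the share past 2-fold was thus not above that of all genes in any comparison. By direction, 5.47% of all genes were higher and 4.49% lower in lung Mϕ over PBMo, and 4.02% and 1.09% in lung DC over PBMo. In lung Mϕ over lung DC these shares were 2.74% and 4.52%. There the 12 higher genes of 195 were above the share of all genes, and the 2 lower ones below it. Pdk4, a kinase that restrains entry of pyruvate into the cycle, had log2 ratios of 3.74 in lung Mϕ over PBMo, 1.42 in lung DC over PBMo and 2.32 in lung Mϕ over lung DC. Ucp3, a carrier of the uncoupling protein family, had 2.60, 0.61 and 1.99, and Atp5g3, which encodes the ring subunit of the ATP synthase, 1.51, -0.07 and 1.58. All 3 were highest in lung Mϕ. Cox7a1 had 1.83, 0.64 and 1.18, whereas Cox6a2, like it a form of complex IV subunit typical of heart and muscle, had 0.16, 2.39 and -2.23 and was highest in lung DC. Sdhaf1, an assembly factor of complex II, had -1.03, 0.04 and -1.07, opposite to the 4 complex II genes in lung Mϕ over lung DC. Ppargc1b, a coactivator of mitochondrial genes, had 1.48, 0.30 and 1.19, whereas the 18 regulators listed had medians of -0.09, -0.13 and 0.03. In the same list Myc had 1.84, 1.73 and 0.11, and Nfe2l2 0.34, 1.05 and -0.71. No other listed regulator passed 2-fold in any comparison. Nrf1 was at -0.48, -0.22 and -0.26 and Yy1 at -0.64, -0.33 and -0.31, so that both of these transcription factors were lowest in lung Mϕ. Cyc1 (cytochrome c1) was near 0 in every comparison, at 0.05, -0.07 and 0.13, and Cycs (cytochrome c) had 0.15, -0.34 and 0.49.

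**Figure D4:**
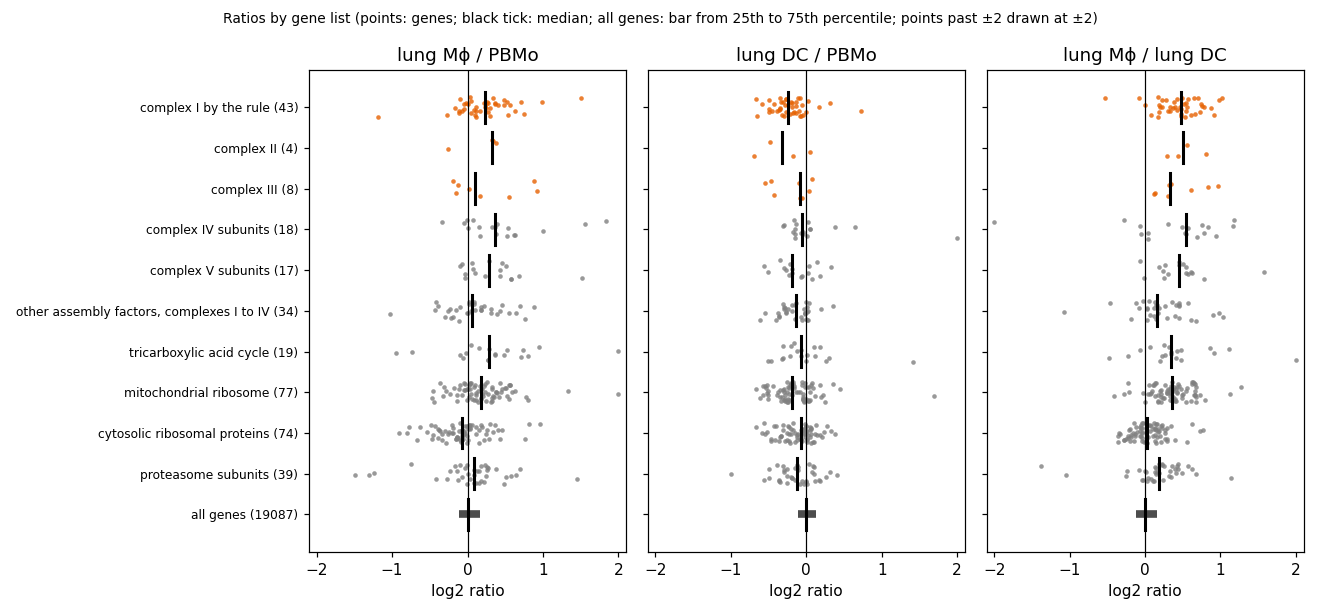
Log2 ratios of the genes of each list (rows) in the 3 comparisons, each point a gene (orange for complexes I, II and III, those past 2 on the log2 scale drawn at the edge), each black mark the median of its list and the bar of all genes its range from the 25th to the 75th percentile. The medians of the respiratory complexes and the mitochondrial ribosome lie above 0 in lung Mϕ over lung DC (0.34 to 0.54). Those of the proteasome subunits and the cytosolic ribosomal proteins lie at 0.18 and 0.03.

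Promoter sequence was examined because most of the genes stood on the same side in each comparison (41, 48 and 52 of 55). RefSeq windows of 300 bases (250 before and 50 after the start, build GRCm38.p6) were given for 47 of the 55 genes, 49 windows in all. The NRF1 letters, GCGCA and GCGC with any base between them, which nuclear respiratory factor NRF1 is known to bind, were found on either strand in 13 of these windows (26.5%), beside 4.60% of all 32851 windows. Among windows with at least 10 CpG dinucleotides, a limit set after the data had been seen, the shares were 27.1% and 10.3%. The letters AANATGGCG, read by YY1, were in 14.3% of the windows, beside 2.38% of all and 5.03% of those rich in CpG, and the ETS letters CCGGAAG in 18.4%, beside 8.86%. The ETS share was close to that of all windows rich in CpG (17.3%). The letters GGGGCGGGG of SP1 were in 14.3%, beside 11.4% of all and 23.6% of those rich in CpG, and TCAAGGTCA, read by oestrogen-related receptors, in 1 window (2.04%), beside 0.423% of all. All letters were searched on both strands, and matches of different motifs overlapped 0 times in these windows. These are matches of letters and not binding sites. The 12 genes with the NRF1 letters had a median of 0.51 in lung Mϕ over lung DC, and the 35 without them 0.46. These medians were 0.26 and 0.12 in lung Mϕ over PBMo, and -0.22 and -0.26 in lung DC over PBMo. For the YY1 letters the order was the reverse in lung Mϕ over lung DC, with 0.33 for 7 genes with them and 0.48 for 40 without.

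The 250 bases before the start are shown, read 5′ to 3′ on the strand of the gene, for 5 genes with such letters there, chosen after the values were seen to cover all 3 complexes and a range of ratios. Capitals mark NRF1 or ETS letters on either strand.
Ndufb4, chr16:37654369-37654618, minus strand: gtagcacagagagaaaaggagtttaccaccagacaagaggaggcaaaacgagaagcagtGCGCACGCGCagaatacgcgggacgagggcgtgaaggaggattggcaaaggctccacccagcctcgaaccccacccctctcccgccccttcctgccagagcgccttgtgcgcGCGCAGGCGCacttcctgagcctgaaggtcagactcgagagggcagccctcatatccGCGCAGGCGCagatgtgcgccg
Ndufs6, chr13:73328483-73328732, minus strand: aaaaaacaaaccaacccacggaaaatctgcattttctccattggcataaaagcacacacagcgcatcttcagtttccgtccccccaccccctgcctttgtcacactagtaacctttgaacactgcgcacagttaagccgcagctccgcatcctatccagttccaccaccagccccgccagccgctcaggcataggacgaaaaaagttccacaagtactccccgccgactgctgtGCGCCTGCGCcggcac
Sdha, chr13:74350241-74350490, minus strand: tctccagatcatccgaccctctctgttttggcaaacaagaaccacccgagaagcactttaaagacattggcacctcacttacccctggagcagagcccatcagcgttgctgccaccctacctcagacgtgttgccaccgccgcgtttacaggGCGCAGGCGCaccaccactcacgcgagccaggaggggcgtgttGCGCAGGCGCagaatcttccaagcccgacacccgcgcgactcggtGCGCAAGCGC
Sdhd, chr9:50603850-50604099, minus strand: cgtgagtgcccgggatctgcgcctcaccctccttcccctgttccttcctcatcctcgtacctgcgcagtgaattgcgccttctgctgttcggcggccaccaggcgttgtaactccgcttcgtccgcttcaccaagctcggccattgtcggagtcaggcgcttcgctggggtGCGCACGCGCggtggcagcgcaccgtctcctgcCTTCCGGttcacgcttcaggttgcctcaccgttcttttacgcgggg
Uqcr11, chr10:80406822-80407071, minus strand: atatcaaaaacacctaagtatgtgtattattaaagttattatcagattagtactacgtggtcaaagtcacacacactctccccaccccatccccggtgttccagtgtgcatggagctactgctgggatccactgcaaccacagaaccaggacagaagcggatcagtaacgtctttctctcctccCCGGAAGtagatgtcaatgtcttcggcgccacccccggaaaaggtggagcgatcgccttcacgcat
Ndufb4 and Sdha each held the NRF1 letters at 3 places. Those of Ndufb4 began at positions -191, -79 and -22, with -1 the last base before the start, and those of Sdha at -98, -55 and -10. Ndufs6 held them once, at -16 and on the reverse strand, Sdhd once together with the ETS letters, and Uqcr11 held the ETS letters alone. In lung Mϕ over lung DC, the genes with 3 NRF1 matches had 0.74 (Ndufb4) and 0.29 (Sdha). Those with 1 had 0.76 (Ndufs6) and 0.80 (Sdhd), and Uqcr11, with none, had 0.96. The mean of Sdha joined RefSeq probes at 0.43 and 0.52 with a clone probe at -0.09. A link between the number of matches and the ratios was not tested.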

How the data were processed

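The RNA pools of the 3 cell types were amplified by the authors and hybridized on two-colour Agilent whole-genome mouse arrays. Per the study's methods, spots were weighted by quality, background was subtracted with a constant offset, arrays were normalized by LOESS, and limma fitted one model over all 12 hybridizations. The deposited values are the log2 ratios of that model, 1 per spot and comparison. The offset pulls the ratios of dim spots towards 0. Since these are model contrasts, neither error nor depth was given.

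Spots were matched to probes through the platform annotation, after choosing among 32 layouts by the agreement of probes of one accession. Of 33709 listed probes, 33653 named 1 gene and were averaged per gene, and 56 naming several were left out. All 55 genes matched RefSeq by gene number. Genes past 2-fold, genes above 0 and medians were set beside all genes. All genes under the rule could be named, with full values for those past 1.5-fold, the extremes, the core subunits and complexes II and III. In other lists those past 2-fold, or else the largest, could be named. The rule for the genes uses symbols alone, but it and the lists were chosen with earlier results of these data known, and the cytosolic ribosomal and proteasome lists were added last. Scripts were tested on simulated data (Python 3.11.15, numpy 2.4.6, pandas 2.3.3). Alternatives covered probe summary, probe source, centring, thresholds and row order.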

Additional observations from a re-analysis of the deposited data

How the results depend on the processing

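With 1 deposited ratio per comparison no replicate was left out. No paired analysis was possible because the values of single pools were not analysed here. The row order chosen without the 55 genes gave identical values, and centring on the median of all genes moved no count. Of the main counts and medians 73 alternatives stayed close and 26 moved, and of the others 72 stayed, 7 moved and 2 reversed. Where they moved, the cause was not tested beyond the smaller number of genes or the other threshold itself.

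Among the 55 genes, those past the threshold in lung Mϕ over PBMo, lung DC over PBMo and lung Mϕ over lung DC numbered 8, 5 and 16 at 1.5-fold, and 0 in both lung Mϕ comparisons at 4-fold. Past 2-fold, none of the 17 genes with at least 2 probes, and none of the 47 left without the assembly factors and Ndufa4, passed in either lung Mϕ comparison. With RefSeq mRNA probes only, 1 gene passed in lung Mϕ over PBMo and 2 in lung Mϕ over lung DC. Taking each probe on its own, or the probe with the largest ratios, gave 2 in lung Mϕ over lung DC. Of the 17 genes with at least 2 probes, 13, 3 and 16 were above 0, and their median in lung Mϕ over lung DC was 0.35. Of 80 single probes 12 were above 0 in lung DC over PBMo. Of the 195 genes in the other mitochondrial lists, 36, 12 and 48 passed 1.5-fold, beside 18.9%, 11.7% and 15.6% of all genes. At 4-fold 4, 1 and 2 of them passed. Of all 19087 genes, 321 were higher and 263 lower past 4-fold in lung Mϕ over PBMo. These numbers were 209 and 30 in lung DC over PBMo, and 66 and 253 in lung Mϕ over lung DC. Of the 343 single probes of the 195 genes, 40 and 19 passed 2-fold in lung Mϕ and lung DC over PBMo, and 21 in lung Mϕ over lung DC. The share over all single probes was not computed, so these probe counts have no background beside them. The complex III median in lung Mϕ over PBMo, 0.096 over its 8 genes, was -0.15 with at least 2 probes (3 genes), 0.27 with RefSeq mRNA probes only and 0.36 without genes whose probes differ in sign. That of complex II in lung DC over PBMo, -0.33 over its 4 genes, was 0.048 with at least 2 probes (Sdha alone), -0.13 over single probes and -0.48 without genes whose probes differ in sign.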
